A study of Mus musculus with 37 samples.

Results

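Ribosomal protein pseudogenes were taken as every listed gene whose symbol starts with Rpl or Rps and ends in -ps with or without a number, the name given to copies of a ribosomal protein gene. In all, 192 of the 29294 gene symbols in 4 RNA-seq tables met this rule. Each copy was set beside its parent, the gene with the same symbol without the ending, and the 192 copies had 55 parents. The largest families were those of Rpl31 with 16 copies, Rpl21 with 13, Rps19 with 10, and Rpsa with 8. The first table held fully grown germinal vesicle (GV) oocytes of the ZH line, in which Zp3-Cre, a recombinase expressed in growing oocytes, deletes exons of Hira, with 4 ZH Het and 4 ZH KO libraries. Another pair of tables held GV oocytes and 2-cell embryos from the CabZ line, in which the same Cre deletes an exon of Cabin1, each with 4 CabZ Het and 4 CabZ KO libraries. Het animals were littermates carrying Zp3-Cre and a single floxed allele, so Cre and a single deleted allele were shared by every control of those lines. The last table held 2-cell embryos from wild-type GV oocytes injected with GFP RNA (4 libraries) or Zscan4d RNA (3 libraries, labelled Zscan4 OE), matured in vitro and activated without sperm. All mice were C57BL/6, and the ages of the females are not given in the labels. The labels do not say whether libraries of a group came from separate females, so P-values measure the spread between libraries.

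Each ribosome is built from ribosomal RNA and one copy of most ribosomal proteins, whose Rps genes encode the small subunit and whose Rpl genes encode the large subunit. The genes are short, highly transcribed and rich in introns, and their spliced mRNAs were repeatedly copied back into the genome by reverse transcription. Such copies lack introns and usually lack the promoter of the parent, and most are called processed pseudogenes. A fully grown oocyte stores a large maternal pool of mRNA, and transcription from the embryo's own genome resumes in force at the 2-cell stage in the mouse. A short read taken from a stretch that copy and parent share letter for letter cannot be assigned to either by its sequence alone.

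The reference annotation called 178 of the 192 copies processed pseudogenes in every table that listed them. Aligned to the parent's transcripts, 189 copies matched, at a median identity of 98.1% (lowest 78.1%, highest 100%), and 60 reached 99% or more. A reading frame as long as the parent's was open in 103 copies. Windows of 150 bases, the length of a read, were compared letter for letter between each copy and its parent's transcripts. No window was shared by 96 copies, fewer than 50% of the windows by 63, at least 50% but not all by 20, and all by 12. The annotated spans of 67 copies overlapped another gene, 43 of them one on the opposite strand.

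The stretches shown here, in mm10 coordinates, are from copies named in the results. Each is the stretch of 120 coding bases with the most differing letters, so it is not typical of the whole copy. It is read 5′ to 3′ on the strand of the copy or gene, and capitals mark letters at which a copy and the gene beside it differ. Rps6-ps4 (chr2:75191703-75191822, minus strand) stands for the 12 copies that share every window with the parent, and Rps6 (coding bases 1 to 120, chr4:86856746-86857326, minus strand, intron left out) has the same 120 letters.
Rps6-ps4: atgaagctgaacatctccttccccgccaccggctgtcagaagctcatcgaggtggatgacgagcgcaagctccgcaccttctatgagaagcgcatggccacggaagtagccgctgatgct

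Rpl9-ps6 (chr19:32466286-32466405, minus strand) and Rpl9 (coding bases 147 to 266, chr5:65389603-65390754, minus strand, introns left out) are shown because the reads on this copy far outnumbered those on the parent. Rpl35a-ps2 (chr1:181242165-181242284, minus strand) and Rpl35a (coding bases 37 to 156, chr16:33057415-33057534, plus strand) are shown because Rpl35a-ps3, Rpl35a-ps4 and Rpl35a-ps6, on chromosomes 17, 2 and 5, hold the same letters as Rpl35a-ps2 over their whole 333 bases.
Rpl9-ps6: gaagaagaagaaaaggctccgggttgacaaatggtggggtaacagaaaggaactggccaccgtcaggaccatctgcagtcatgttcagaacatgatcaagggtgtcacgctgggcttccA
Rpl9: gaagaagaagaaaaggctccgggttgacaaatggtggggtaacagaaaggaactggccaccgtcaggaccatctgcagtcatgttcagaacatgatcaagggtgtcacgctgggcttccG
Rpl35a-ps2: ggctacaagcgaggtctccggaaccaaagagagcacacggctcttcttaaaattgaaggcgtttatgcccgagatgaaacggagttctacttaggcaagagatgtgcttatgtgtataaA
Rpl35a: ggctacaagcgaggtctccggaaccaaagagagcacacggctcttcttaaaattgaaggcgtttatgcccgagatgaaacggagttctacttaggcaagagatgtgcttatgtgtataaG

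The next 4 pairs are those of copies that were higher in CabZ KO 2-cell embryos; they shared no window with the parent. They are Rpl31-ps7 (chr6:47786032-47786151, minus strand) with Rpl31 (coding bases 223 to 342, chr1:39370129-39371062, plus strand), Rpl21-ps1 (chr1:184617406-184617525, plus strand) with Rpl21 (coding bases 159 to 278, chr5:146835021-146835599, plus strand), Rpsa-ps4 (chr11:33039458-33039577, minus strand) with Rpsa (coding bases 127 to 246, chr9:120128616-120129270, plus strand), and Rpl19-ps3 (chr14:49112679-49112798, minus strand) with Rpl19 (coding bases 1 to 120, chr11:98026986-98028353, plus strand). Introns of the parents are left out.
Rpl31-ps7: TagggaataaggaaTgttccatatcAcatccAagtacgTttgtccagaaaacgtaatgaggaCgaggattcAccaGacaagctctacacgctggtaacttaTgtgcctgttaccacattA
Rpl31: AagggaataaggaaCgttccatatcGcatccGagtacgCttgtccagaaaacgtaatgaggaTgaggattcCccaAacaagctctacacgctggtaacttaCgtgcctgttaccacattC
Rpl21-ps1: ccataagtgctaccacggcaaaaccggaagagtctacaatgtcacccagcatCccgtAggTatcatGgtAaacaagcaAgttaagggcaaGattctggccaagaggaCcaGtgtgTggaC
Rpl21: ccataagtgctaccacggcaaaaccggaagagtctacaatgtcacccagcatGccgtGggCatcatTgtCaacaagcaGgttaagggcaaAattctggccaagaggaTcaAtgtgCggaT
Rpsa-ps4: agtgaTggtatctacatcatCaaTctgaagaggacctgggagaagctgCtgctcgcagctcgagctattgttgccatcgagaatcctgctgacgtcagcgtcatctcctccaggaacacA
Rpsa: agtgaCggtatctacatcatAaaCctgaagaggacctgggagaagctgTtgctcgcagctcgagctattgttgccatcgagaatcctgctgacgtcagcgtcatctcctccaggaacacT
Rpl19-ps3: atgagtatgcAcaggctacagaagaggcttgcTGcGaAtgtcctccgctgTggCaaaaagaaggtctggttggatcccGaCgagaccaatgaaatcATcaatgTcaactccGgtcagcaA
Rpl19: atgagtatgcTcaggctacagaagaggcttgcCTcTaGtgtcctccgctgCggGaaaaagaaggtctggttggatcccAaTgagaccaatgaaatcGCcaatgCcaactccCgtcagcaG

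The sequence of Rps7-ps2 went against its name. The span listed as Rps7-ps2 did not align to Rps7, and its best match among protein-coding transcripts was Odc1, which encodes ornithine decarboxylase, the first enzyme of polyamine synthesis, at 94.8% identity over 928 aligned bases of a 1347-base span. The pair is shown with Rps7-ps2 at chr12:3522706-3522825 on the minus strand and Odc1 coding bases 546 to 665 at chr12:17548405-17548625 on the plus strand. Rps4l-ps was not aligned to its parent here, and its best match was Rps4x at 76.2%. Rpl13-ps1 ran opposite to the orientation of its parent, inside Usp32.
Rps7-ps2: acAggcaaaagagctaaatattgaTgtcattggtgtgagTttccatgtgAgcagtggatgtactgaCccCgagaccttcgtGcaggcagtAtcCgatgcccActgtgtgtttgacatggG
Odc1: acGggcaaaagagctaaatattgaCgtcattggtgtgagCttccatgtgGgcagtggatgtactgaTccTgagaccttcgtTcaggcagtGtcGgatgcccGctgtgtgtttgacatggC

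The tables listed 172, 132, 148 and 103 of the copies, in the order given above, and 96 copies were in all of them. A copy was tested where its mean over all libraries of a table was at least 1 FPKM (fragments per kilobase of listed span, relative to the depth of the library), which 71, 91, 109 and 54 copies met. That mean takes in both groups, so a copy low in one group was tested only where the other group was high. Total reads rebuilt from the tables ranged from 5819314 to 21869851 per library. Differences are given as log2 fold changes on the log2(FPKM + 1) scale with their s.e., which understates changes of low genes, and a gene was called when the adjusted P-value was below 0.05 and the fold change above 2. Cabin1 was lower in every CabZ KO than in every CabZ Het library of its table, whereas Hira was near 0 in all ZH libraries, at no more than 0.012 FPKM, so it checks no label there. The fall of Cabin1 was not particular to the CabZ line, as it was at 0.259 to 0.346 FPKM in ZH Het and 0.064 to 0.102 in ZH KO. In CabZ 2-cell embryos Hira was at 0.193 to 0.269 FPKM in Het and 0.015 to 0.057 in KO. Zscan4d was not higher in the embryos labelled Zscan4 OE (79.4 ± 7.94 FPKM, n = 3) than in GFP embryos (117 ± 34.4, n = 4). Oocyte markers summed to 1530 FPKM or more in every library; of the 12, 4 were called lower in ZH KO oocytes (3340 to 3570 in Het, 2440 to 3180 in KO) and 6 higher in CabZ KO 2-cell embryos (1800 to 2160 in Het, 1530 to 3280 in KO). Blood cell markers summed to 145 to 235 FPKM in CabZ Het and 82.4 to 291 in CabZ KO 2-cell embryos, with Hbb-bs, Hbb-bt and Alas2 at 0, and to at most 10.8 elsewhere. Granulosa and cumulus cell markers summed to at most 2.52 FPKM, with Amh at 0, and were 0.459 to 0.781 in ZH Het and 1.07 to 2.52 in ZH KO libraries. Their part in the results was not tested.

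The 8 copies with the highest level over the 8 groups had 7 parents, with Rpl19-ps11 and Rps13-ps2 first. Rpl19-ps11 copies Rpl19, a large-subunit protein that helps bridge the subunits, and was listed at 222, 184, 226 and 308 FPKM in ZH Het and at 403, 394, 394 and 448 in CabZ Het oocytes. In CabZ Het 2-cell embryos the highest was Rps6-ps4, a copy of the small-subunit protein phosphorylated downstream of mTOR, at 408, 471, 523 and 380 FPKM. The median over all tested copies was far lower, at 11.8 FPKM in ZH Het, 13.3 in CabZ Het GV, 8.47 in CabZ Het 2-cell and 9.28 in GFP libraries. These levels were set by tables normalised separately, so levels of different tables were not compared. Within each control group 48.5% to 54.5% of all reads on the copies fell on 8 of them, not always the same 8.

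**Figure D1:**
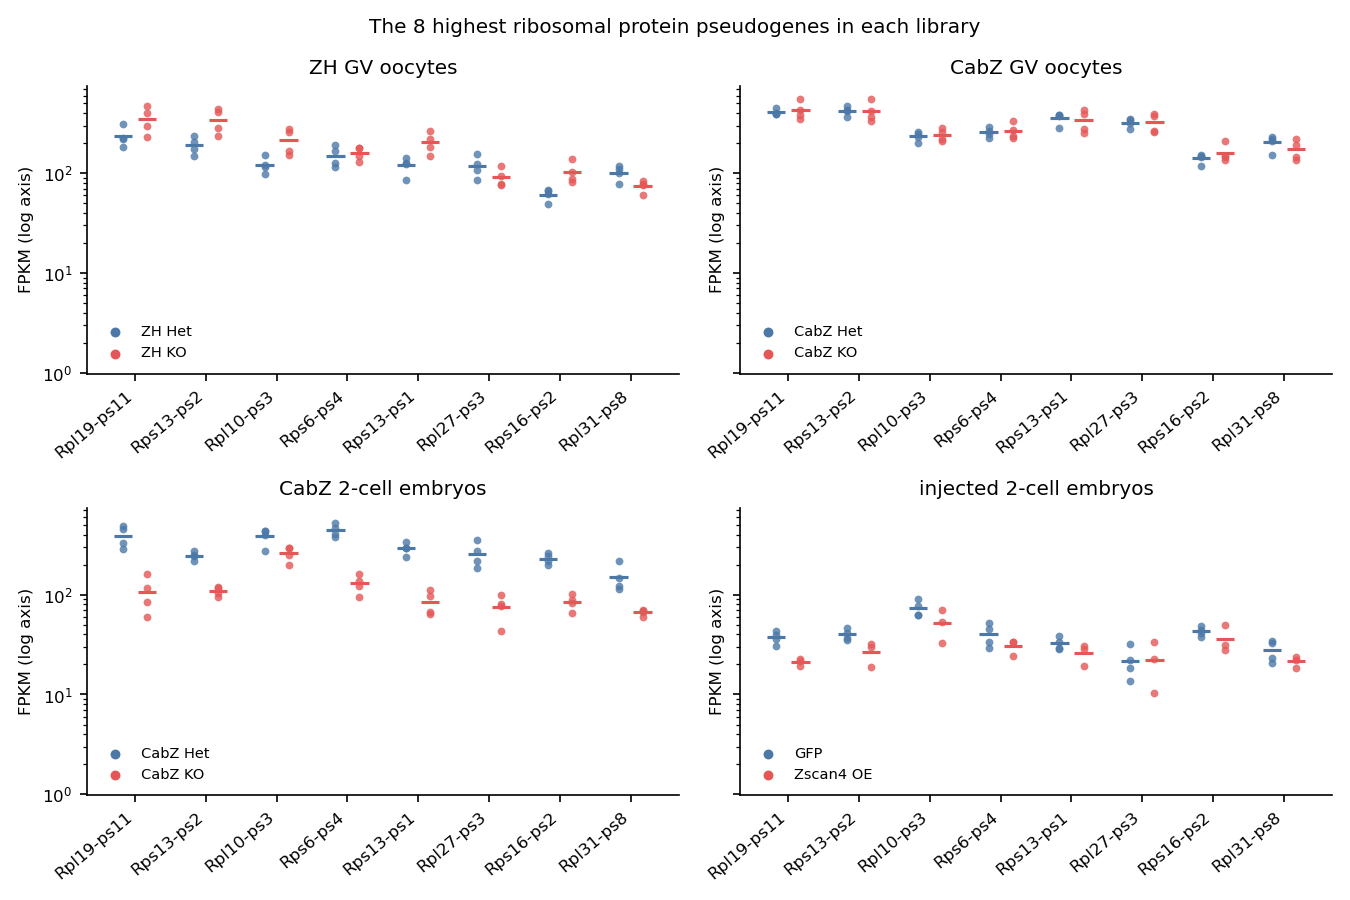
FPKM on a log axis of the 8 copies with the highest mean over the groups, 1 point per library and a bar at the group mean, for ZH GV oocytes, CabZ GV oocytes, CabZ 2-cell embryos and injected 2-cell embryos. In CabZ 2-cell embryos the KO points lie below the Het points for every copy shown except Rpl10-ps3, whose groups overlapped.

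Because the FPKM of a parent was spread over its introns, copy and parent were compared by reads. More reads were assigned to the copy than to its parent for 20 of 71 tested copies in ZH Het, 24 of 91 in CabZ Het GV, 23 of 109 in CabZ Het 2-cell and 21 of 54 in GFP libraries. Rps6-ps4 had 3.95, 4.67, 4.76 and 4.41 reads per Rps6 read in ZH Het and 4.56, 4.14, 5.03 and 4.25 in ZH KO libraries. In CabZ 2-cell embryos the same ratio was 3.82, 3.13, 3.29 and 3.28 in Het and 3.75, 3.85, 3.53 and 4.98 in KO. The groups overlapped in both. Rpl10-ps3, annotated as protein coding and identical over 740 aligned bases to Rpl10, a large-subunit protein needed for subunit joining, had 42.4 to 85.9 reads per Rpl10 read in ZH Het libraries. Rps16-ps2 stayed between 1.45 and 2.28 reads per Rps16 read in all CabZ 2-cell and between 1.7 and 2.26 in all ZH libraries.

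**Figure D2:**
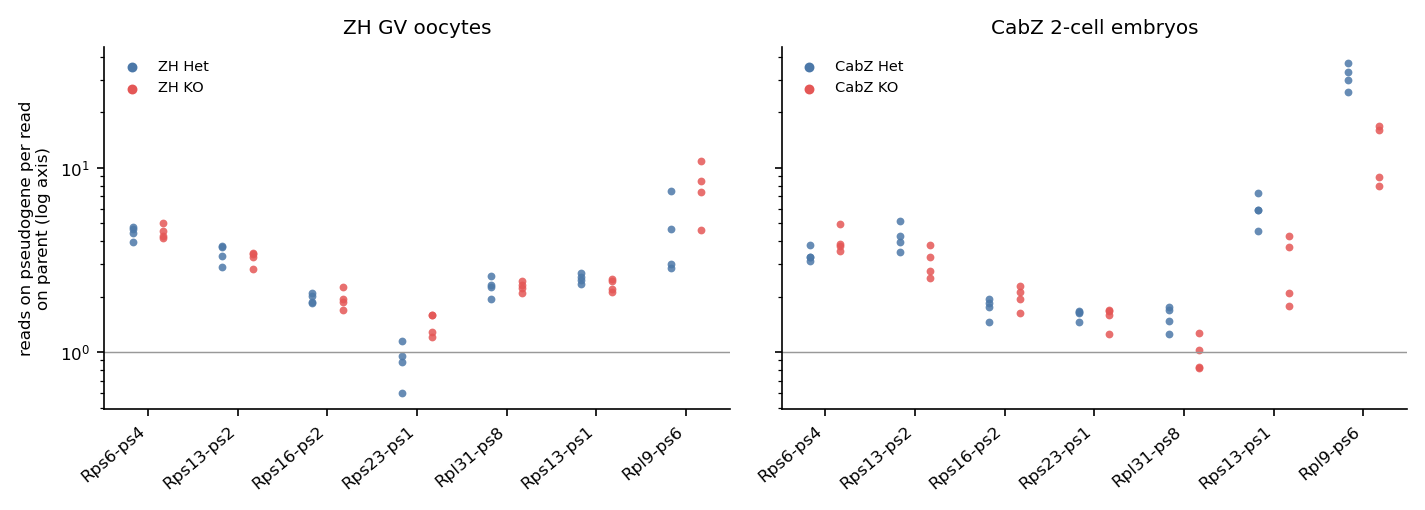
Reads on a copy per read on its parent, on a log axis, 1 point per library, for 7 copies in ZH GV oocytes (left) and CabZ 2-cell embryos (right); the grey line marks equal reads. Rps6-ps4 stays near 4 in both groups of both panels, while the KO points of Rpl9-ps6 lie below the Het points in CabZ 2-cell embryos.

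Low values were also examined for whole numbers of reads. Among values of 0.5 to 12 reads, 83.7% were whole numbers over all genes of the ZH table but 35.7% over the copies, to within 0.02 reads. The shares were 72.7% and 29.9% in CabZ GV, 77.3% and 42% in CabZ 2-cell, and 84.2% and 42.2% in the injected embryos. Ribosomal protein genes had few such values. Whole numbers made up 11.1% of 9 in ZH, 13.3% of 15 in CabZ GV and 44.4% of 18 in the injected embryos. The 4 identical Rpl35a copies had the same value in every library of every table, and Rps19-ps1 and Rps19-ps2 likewise in the 3 tables that listed them. How reads with several matches were divided is not given in the sources used here.

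In ZH KO GV oocytes 20 of 71 tested copies were called, 17 higher and 3 lower, or 28.2%, beside 17.7% of all genes tested (10.5% higher, 7.2% lower). The median log2 fold change of the copies was 0.625, that of 76 ribosomal protein genes 0.529 (9 called higher, 0 lower) and that of all genes tested -0.041. Rps23-ps1 moved most. It copies Rps23, a small-subunit protein at the decoding centre, and was at 17.4, 9.48, 25.9 and 31.3 FPKM in ZH Het and 128, 75, 128 and 111 in ZH KO libraries. The groups did not overlap (log2 fold change 2.43 ± 0.331, limma adjusted P = 0.000347), and Rps23 itself was higher by 1.61 ± 0.203. All 425 bases of Rps23-ps1 are identical to Rps23, so reads within them cannot be assigned to either by sequence. The copy also overlaps an exon of Gm5148 on the opposite strand. A change in the share of cells that hold a transcript and a change in its amount per cell cannot be told apart in these pooled libraries.

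The 2 tested copies of Rpl9, which encodes a large-subunit protein, both rose. Rpl9-ps6 was at 1.6, 2.25, 3.26 and 6.01 FPKM in ZH Het and 19.5, 14.2, 19.8 and 20.4 in ZH KO (2.27 ± 0.277, limma adjusted P = 0.000177), and Rpl9-ps7 rose by 1.35 ± 0.277. Rpl9 was below the level for testing, at 0.119 to 0.181 FPKM in ZH Het and 0.408 to 0.696 in ZH KO, with no overlap. Rpl23a-ps3, a copy of a protein at the exit tunnel of the large subunit, was at 24.2, 16.7, 24 and 30.8 FPKM in ZH Het and 103, 63.4, 53.6 and 90.4 in ZH KO. It was higher by 1.64 ± 0.239 and its parent by 1.37. Rpl15-ps3 shares every window with Rpl15 and was higher by 1.26 ± 0.17, and Rpl15 by 0.98. The 4 Rpl35a copies were each higher by 1.01 and count as 4 of the 17, although they share one set of values; their calls were lost without ZH Het replicate 2 (0.84), ZH KO replicate 1 (0.97) or ZH KO replicate 3 (1.00), where the fold change no longer passed 2. The call of Rps25-ps1, higher by 1.02, was lost without ZH Het replicate 2, ZH KO replicate 1 or ZH KO replicate 4 (0.88, 0.88 and 0.98). The remaining calls were Rpl7-ps7, Rps23-ps2, Rpl7a-ps8, Rps12-ps3 and Rpl32-ps, at 1.02 to 1.52, each named after its values were seen.

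Rpl31-ps7 and Rpl13-ps6 were among the called copies whose parent was not called. Rpl31-ps7 was listed at 0, 1.03, 0.637 and 0.909 FPKM in ZH Het and 7.44, 3.29, 3.58 and 10.2 in ZH KO libraries (2.05 ± 0.338, limma adjusted P = 0.000994). Rpl31, a large-subunit protein near the exit tunnel, was lower by a fitted 0.34 (limma adjusted P = 0.0386), short of the fold threshold. The longest reading frame of Rpl31-ps7 has 27 codons beside 125 in its parent. Rpl13-ps6 was at 0.792, 0.567, 0.478 and 0.179 FPKM in ZH Het and 2.73, 3.33, 3.19 and 5.7 in ZH KO libraries (1.63 ± 0.202), and the fitted difference of Rpl13 was 0.17. Rpl13-ps6 was below 1 FPKM in every ZH Het library, and Rpl31-ps7 in all but the library at 1.03. Both therefore passed the filter only through their ZH KO values. The differences between copy and parent were not tested.

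The copies of Rpl17, a large-subunit protein at the exit tunnel, were the 3 that fell. Rpl17-ps5 was at 29.4, 28.2, 23 and 29.3 FPKM in ZH Het and 9.45, 10.9, 13.1 and 13.2 in ZH KO libraries (-1.18 ± 0.144, limma adjusted P = 0.000179). Rpl17-ps8 fell by 1.08 and Rpl17-ps10 by 1.05, and the fourth tested copy by a fitted 0.84 that did not pass the fold threshold. The groups of all 3 called copies did not overlap. Rpl17 itself was at 3.11 to 3.99 FPKM in ZH Het and 1.28 to 1.98 in ZH KO, a fitted -0.76 below the fold threshold. At these levels (means of 3.42 and 1.61 FPKM) the log2(FPKM + 1) scale understates the change, so Rpl17 need not have fallen less than its copies. The call of Rpl17-ps10 was lost without ZH Het replicate 4 (-0.96) or ZH KO replicate 2 (-0.99). When the values were scaled to reads in the table only Rpl17-ps5 of the 3 stayed called, with 26 copies higher.

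**Figure D3:**
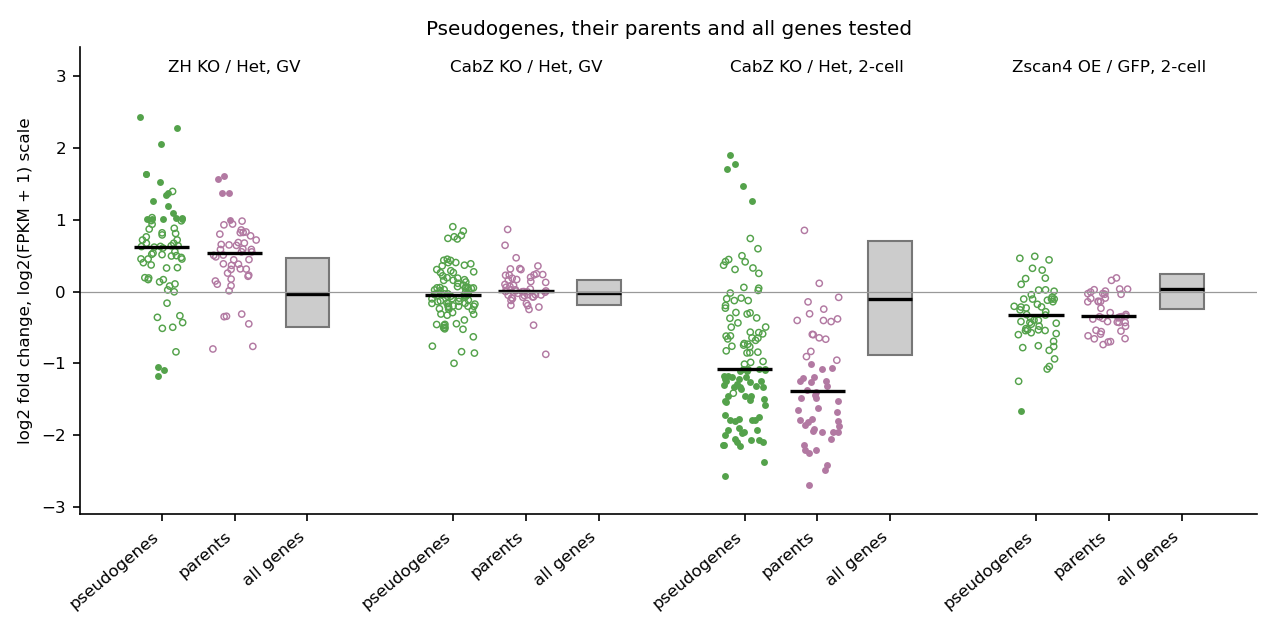
Log2 fold changes on the log2(FPKM + 1) scale of the tested copies and of their tested parents (1 point per gene, filled where called, bar at the median) beside all genes tested (box over the quartiles, bar at the median), by comparison. The median of the copies lies at 0.625 in ZH GV, -0.042 in CabZ GV, -1.077 in CabZ 2-cell and -0.324 in injected embryos.

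Copies and parents moved in the same direction in 60 of 67 ZH pairs in which both were tested. The median difference between them was 0.024, and Spearman's rho across the 67 pairs was 0.75. Pairs of one family share a parent and copy and parent share reads, so this describes the values and is no test. In 8 pairs both were called higher, and in 9 the copy alone was called. Changes of parents listed at low FPKM are understated, which limits the count of copies called alone. The share of higher calls over all genes was 59.2%; scaled to reads in the table it was 72% (26 copies higher, 1 lower) and under median scaling 45.3% (10 higher, 3 lower).

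In CabZ KO GV oocytes none of 91 tested copies was called by limma, beside 2.9% of all genes tested. The unadjusted P-value was below 0.05 for 18 of the 91 copies, beside 1704 of 6339 genes tested. With no fold threshold 5 copies were higher and 8 lower, beside 520 higher and 363 lower over all 6339 genes. The median log2 fold change of the copies was -0.042, and that of 77 ribosomal protein genes was 0.024, with 0 called. The 4 tested Rpl17 copies were among the 8. Rpl17-ps10 was at 236, 212, 210 and 210 FPKM in CabZ Het and 138, 132, 184 and 163 in CabZ KO oocytes, with no overlap (-0.50 ± 0.124, limma adjusted P = 0.0237). Rpl17 differed by -0.47 ± 0.105 without overlap (limma adjusted P = 0.0153). Rpl36-ps12, a copy of a large-subunit protein, was at 74, 71.7, 51.8 and 72.7 FPKM in CabZ Het and 30.7, 30.7, 43.8 and 45.3 in CabZ KO oocytes (-0.84 ± 0.172), and Rpl36 differed by -0.87. Rpl19-ps3, named after its values were seen, was at 1.04, 0.783, 0.732 and 1.03 FPKM in CabZ Het and 1.87, 2.88, 1.6 and 2.85 in CabZ KO oocytes (0.78 ± 0.149, limma adjusted P = 0.00767). These passed the adjusted P-value but not the fold threshold. The count rose to 4 with a pseudocount of 0.1 FPKM and was 1 without CabZ Het replicate 3 or CabZ KO replicate 1, and 2 without CabZ KO replicate 3.

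Most copies were lower in CabZ KO 2-cell embryos. Of 109 tested copies, 59 were called (54.1%), 54 lower and 5 higher, beside 37.4% of all genes tested (16.9% higher, 20.4% lower). The median log2 fold change was -1.077, that of 80 ribosomal protein genes -1.367 (57 called lower, 0 higher) and that of all genes tested -0.11. Rps23-ps1 was at 300, 368, 470 and 402 FPKM in CabZ Het and 122, 69.1, 143 and 85.5 in CabZ KO embryos, with no overlap (-1.90 ± 0.26, limma adjusted P = 0.000438). Rps23, with which it shares every window, differed by -1.79. Rps6-ps4 was at 163, 123, 136 and 95.9 FPKM in CabZ KO embryos, below every CabZ Het value given above (-1.79 ± 0.208), and Rps6 fell by 1.92. Rpl27-ps3, a copy of a large-subunit protein, was at 186, 273, 350 and 220 FPKM in CabZ Het and 99.3, 76.6, 80.5 and 43 in CabZ KO embryos, again without overlap (-1.79 ± 0.294). Rpl27 fell by 1.08, a call lost without CabZ Het replicate 3 (-0.91), CabZ KO replicate 3 (-0.95) or CabZ KO replicate 4 (-0.89). Rpl19-ps11 fell by 1.93 and Rpl19 by 2.05, Rps16-ps2 by 1.45 and Rps16 by 1.52. Mitochondrial genes took 8.99% to 12.9% of reads in CabZ Het and 2.48% to 5.09% in CabZ KO 2-cell libraries. Scaled to reads of nuclear genes, an alternative added after the data were seen, 56 copies were called lower and 5 higher. With the values as deposited, 17 of 50 tested copies were called lower and 0 higher. Over all genes 45.3% of calls were higher, beside 64% with the values as deposited and 57.7% under median scaling, which called 42 copies lower and 5 higher.

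Among the copies with the largest changes, several fell about as far as their parents. Rps25-ps1 fell by 2.13 and Rps25, a small-subunit protein used in internal initiation, by 1.87. Rpl14-ps1 fell by 2.10 and Rpl14 by 1.95, Rps26-ps1 by 2.06 and Rps26, at the mRNA exit of the small subunit, by 2.42. Rps24-ps3 fell by 1.95 and Rps24 by 1.86. Rps19-ps6 was at 166, 181, 228 and 149 FPKM in CabZ Het and 48.8, 38.8, 40.1 and 43.2 in CabZ KO embryos (-2.05 ± 0.185, limma adjusted P = 0.00014), and Rps19, a small-subunit protein mutated in Diamond-Blackfan anaemia, fell by 1.95. Rps19-ps7 fell by 2.09, Rpl36-ps8 by 2.15, Rpl36-ps12 by 2.00, Rpsa-ps10 by 1.97, Rpl30-ps10 by 2.06 and Rpl38-ps2 by 2.37. Of these, Rpl38-ps2 fell 0.88 further than Rpl38 on the log2(FPKM + 1) scale, and Rpl30-ps10 0.66 further than Rpl30. Rpl38 was at 4.06 to 8.58 FPKM in CabZ Het and 1.3 to 1.79 in CabZ KO embryos, where this scale understates its change.

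The Rpl9 copies fell while Rpl9 was not called. Rpl9-ps6 was at 240, 338, 374 and 246 FPKM in CabZ Het and 129, 74.7, 103 and 53.3 in CabZ KO embryos (-1.77 ± 0.292, limma adjusted P = 0.00101). Rpl9-ps4 fell by 2.13 ± 0.314 and Rpl9-ps7 by 2.56 ± 0.485, each without overlap. Rpl9 was at 2.08, 2.29, 2.28 and 1.85 FPKM in CabZ Het and 1.81, 1.87, 1.38 and 1.5 in CabZ KO, and the groups overlapped (-0.24 ± 0.157, limma adjusted P = 0.209). Rpl9-ps6 held 25.9 to 36.8 reads per Rpl9 read in CabZ Het and 7.97 to 16.8 in CabZ KO embryos. Rpl10-ps3 was at 276, 440, 437 and 399 FPKM in CabZ Het and 297, 250, 295 and 197 in CabZ KO embryos, which overlapped (-0.57 ± 0.221, limma adjusted P = 0.0504). Rpl10 was higher in every CabZ KO library (0.85 ± 0.156, limma adjusted P = 0.0017) without passing the fold threshold. Rps13-ps1 fell by 1.79, Rps13-ps2 by 1.18 and Rps13 by a fitted 0.64. The 4 Rpl35a copies were called at -1.08 with overlapping groups, and the call was lost without CabZ Het replicate 2, 3 or 4 or CabZ KO replicate 2 or 4. The call of Rpl17-ps10 (-1.11) was lost without CabZ KO replicate 2 (-0.94), and that of Rpl31-ps8 (-1.11) without CabZ Het replicate 3 (-0.92).

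The 5 copies that were higher in CabZ KO 2-cell embryos shared no window of 150 bases with the gene they are named after. Of those genes 4 were called lower and Rpl31 was not called. Rpl19-ps3, Rpl21-ps1 and Rps7-ps2 were below 1 FPKM in every CabZ Het library, and Rpl31-ps7 in all but replicate 1. These passed the filter largely through their KO values, which limits their calls. With no filter 5 copies were higher and 47 lower of 148. At a minimum of 5 FPKM 0 were higher and 45 lower of 61. Rpsa-ps4 copies Rpsa, a small-subunit protein also known as the laminin receptor, with a frame open over all 295 codons. It was at 2.82, 1.84, 1.23 and 2.19 FPKM in CabZ Het and 5.59, 11, 4.3 and 5.03 in CabZ KO embryos (1.26 ± 0.284, limma adjusted P = 0.00474), and Rpsa fell by 1.62. Rpl31-ps7 was at 2.99, 0.332, 0.331 and 0.32 FPKM in CabZ Het and 5.42, 9.27, 4.17 and 2.72 in CabZ KO embryos (1.77 ± 0.426, limma adjusted P = 0.00645). CabZ Het replicate 1 overlapped the KO values, and these were 1 to 9 reads against 6 to 22. Rpl31 differed by -0.40 and was not called.

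Rpl19-ps3 was at 0.203, 0.341, 0.45 and 0.682 FPKM in CabZ Het and 5.08, 2.09, 2.48 and 2.51 in CabZ KO embryos, with no overlap (1.47 ± 0.24, limma adjusted P = 0.000985), while Rpl19 fell by 2.05. Its listed span (chr14:49103507-49122712) is 19206 bases long and only 3.6% of it aligned to Rpl19, so the 31 to 108 reads in CabZ Het and 251 to 570 in CabZ KO libraries need not lie on the copy. Rpl21-ps1, with a frame open over all 160 codons of Rpl21, was listed at 0 in every CabZ Het library and at 2.85, 2.33, 3.29 and 1.07 FPKM in CabZ KO (limma adjusted P = 0.000437), or 8, 7, 10 and 3 reads. Rpl21 fell by 1.80. Rps7-ps2 was at 0, 0, 0.093 and 0.185 FPKM in CabZ Het and 7.43, 3.79, 1.99 and 1.04 in CabZ KO embryos, or 0 to 2 against 8 to 58 reads (1.89 ± 0.384, limma adjusted P = 0.00273). Rps7 fell by 1.24, and Odc1, the gene its sequence matched, was at 25.1, 37.5, 36.8 and 25.3 against 25, 11.6, 14 and 18.7 FPKM without overlap (-0.84 ± 0.264), short of the fold threshold.

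**Figure D4:**
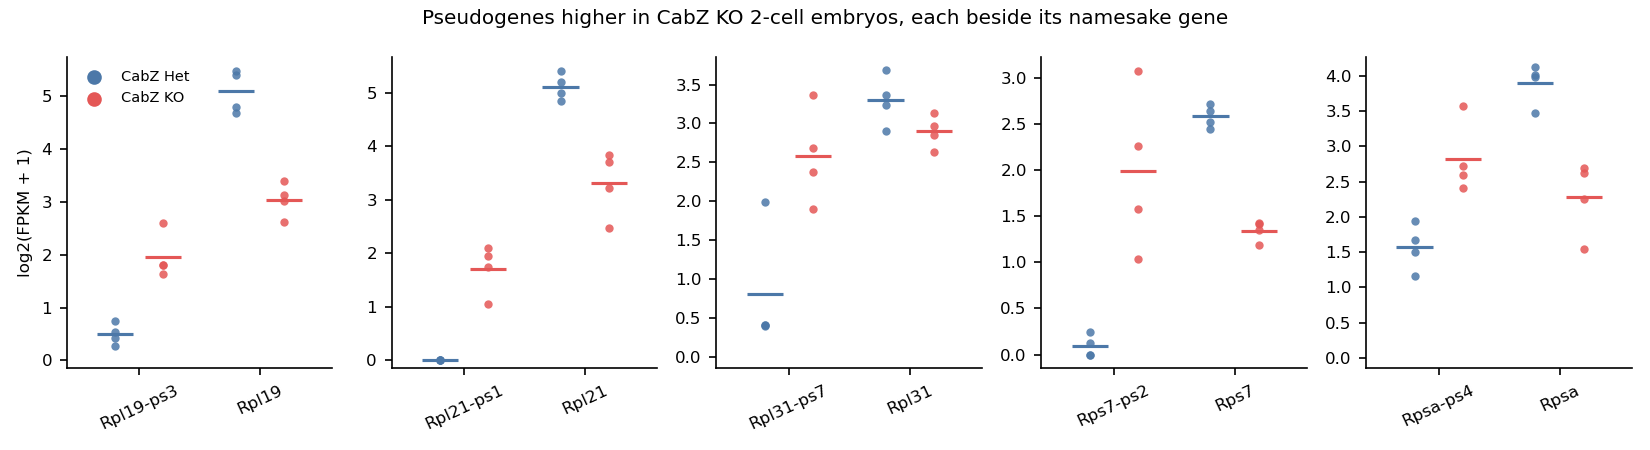
Log2(FPKM + 1) in CabZ 2-cell libraries, 1 point per library and a bar at the group mean, of the 5 copies that were higher in CabZ KO, each beside the gene it is named after. For each pair the KO mean lies above the Het mean on the copy and below it on the namesake gene.

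Copies and parents moved in the same direction in 88 of 108 CabZ 2-cell pairs, and 38 pairs were called lower together. In 4 pairs both were called in opposite directions, in 16 the copy alone and in 18 the parent alone was called. The difference exceeded 1 on the log2(FPKM + 1) scale in 25 pairs. That scale understates changes of whichever gene of a pair is listed at low FPKM, which limits these counts. Spearman's rho across the 108 pairs was 0.31, beside 0.54 over 88 pairs in CabZ GV and 0.39 over 44 pairs in injected embryos; these values have no test, and differences between the tables were not tested.

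**Figure D5:**
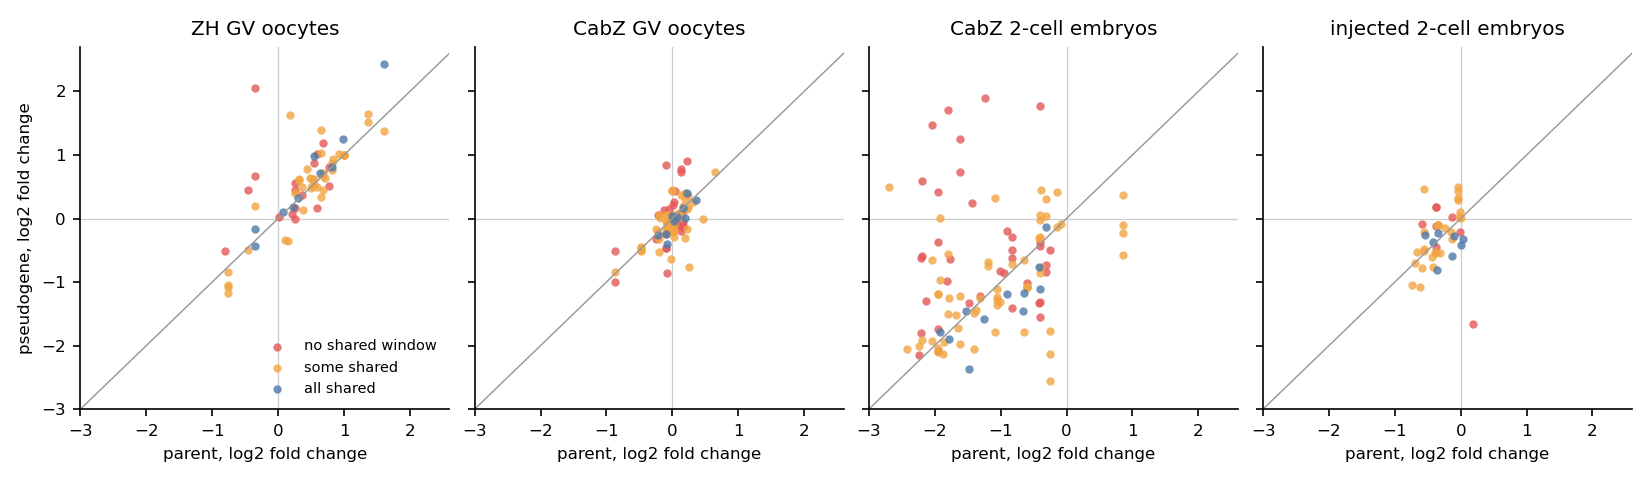
Log2 fold change of each copy (y axis) against that of its parent (x axis), 1 point per pair with both tested, coloured by whether none, some or all windows of 150 bases are shared; the grey diagonal marks equal change. In CabZ 2-cell embryos the 5 copies highest on the y axis share no window with the parent.

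In CabZ 2-cell embryos calls were counted by the share of common windows. Of copies that shared all windows 9 of 11 were called lower, of those with at least 50% 13 of 20, of those with fewer 22 of 41 and of those with none 10 of 37, at median log2 fold changes of -1.449, -1.263, -1.077 and -0.62. Over all genes tested 20.4% were called lower and 16.9% higher, which also stands beside the counts by frame and overlap below. The 5 that were higher were all among the 37, or 13.5% of them, and 27% of the 37 were lower. Both shares were near those of all genes. Levels moved with this too, since the median CabZ Het level was 150 FPKM where all windows were shared and 3.61 where none was, and the part of level was not tested. In ZH oocytes the shares called higher were 3 of 11, 3 of 15, 8 of 28 and 3 of 17 in the same order, beside 10.5% of all genes tested. The median absolute difference between copy and parent in CabZ 2-cell embryos was 0.325 where all windows were shared and 0.711 where none was. Copies with a frame as long as the parent's were called lower in 42 of 70 and other copies in 12 of 39. Copies that overlapped another gene were called lower in 18 of 41 and the others in 36 of 68.

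Between the 2 comparisons that shared no library, 16 copies were called in both ZH KO oocytes and CabZ KO 2-cell embryos. Of these, 12 were higher in the first and lower in the second, 3 were lower in both and 1 was higher in both. The 3 were Rpl17-ps5, Rpl17-ps8 and Rpl17-ps10, at -1.24, -1.36 and -1.11 in the embryos, and the 1 was Rpl31-ps7. The 12 included Rps23-ps1, Rpl9-ps6, Rpl9-ps7, Rpl23a-ps3, Rpl15-ps3, Rps25-ps1 and the 4 Rpl35a copies, which share one set of values. Of all called copies, 17 of 20 were higher in ZH KO oocytes and 54 of 59 lower in CabZ KO 2-cell embryos. A majority in opposite directions follows largely from these counts. The matching count over all genes is not given here. Stage and deleted gene both differ between the comparisons and cannot be told apart.

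In embryos labelled Zscan4 OE 1 of 54 tested copies was called, or 1.85%, beside 1.44% of all genes tested (1.42% lower). This was Rpl36-ps8, at 3.43, 3.32, 4.87 and 2.78 FPKM in GFP and 0.794, 0 and 0.654 in the embryos labelled Zscan4 OE, or 13 to 36 against 0 to 5 reads (-1.66 ± 0.241, limma adjusted P = 0.0173). Rpl36 differed by 0.19 and was not called. The call of Rpl36-ps8 was lost without GFP replicate A or B, at -1.67 and -1.68. The median over the copies was -0.324 and over 66 ribosomal protein genes -0.353 (1 called lower), beside 0.031 over all genes tested. Rps12-ps3, the highest copy in this table, was at 76.8, 93, 92.1 and 71.4 FPKM in GFP and 77.9, 39.4 and 70.7 in the embryos labelled Zscan4 OE, which overlapped. An unadjusted P-value below 0.05 was reached by 9 of the 54 copies, beside 850 of 4293 genes tested.

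By family, the Rpl31 copies ran in CabZ 2-cell embryos from -1.54 to 1.77 over 7 tested, with 3 lower and 1 higher. The 4 tested Rpl17 copies ranged from -1.36 to -1.11 there, from -1.18 to -0.84 in ZH KO oocytes and from 0.30 to 0.49 in embryos labelled Zscan4 OE, where none was called. Of 6 tested Rps19 copies 4 were lower in CabZ KO 2-cell embryos. The 7 Rpl19 copies included the highest of all, Rpl19-ps11, and the one that rose, Rpl19-ps3.

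CPM were taken as reads relative to the total reads listed in the table for a library. Summed over all copies, CPM were 1328 to 2107 in ZH Het and 2168 to 3406 in ZH KO oocytes. The ratio of means was 1.59, with no overlap. Those total reads held 74.2% to 74.7% of the depth behind the FPKM in ZH Het and 66% to 68.2% in ZH KO libraries. Relative to that depth the ratio would be smaller, and the groups need not stay apart. The sums were 2299 to 2726 and 2184 to 3272 in CabZ Het and KO oocytes, which overlapped. In CabZ 2-cell embryos they were 2833 to 3978 in Het and 1063 to 1763 in KO, a ratio of 0.412 with no overlap. GFP embryos held 586 to 760 and embryos labelled Zscan4 OE 397 to 679. Set against reads on 82 ribosomal protein genes, there were 40.5 to 44.3 copy reads per 100 in ZH Het and 36.5 to 38.7 in ZH KO oocytes. CabZ GV values were 39.9 to 41.1 in Het and 37.4 to 39.6 in KO, without overlap, and CabZ 2-cell values were 23.2 to 25.5 and 17 to 27, with overlap. These sums have no test. Markers of the 2-cell embryo, none of them a ribosomal gene, summed to 4 to 5.57 FPKM in ZH Het and 116 to 199 in ZH KO oocytes. They summed to 6.64 to 8.07 in CabZ Het and 27.4 to 58 in CabZ KO oocytes, in which no copy was called. In 2-cell embryos the sums were 299 to 658 in CabZ Het and 301 to 1210 in CabZ KO, with overlap, and 429 to 676 in GFP and 140 to 394 in embryos labelled Zscan4 OE, without overlap. Their relation to the copies was not tested.

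Open chromatin was measured in CabZ GV oocytes by ATAC-seq, with 3 Het and 3 KO libraries. A peak lay within 500 bases of the start of 30 of the 192 copies (15.6%) in at least 1 library, beside 62 of 82 ribosomal protein genes and 626 of 3340 other processed pseudogenes (18.7%). Over all genes it was 11719 of 29296 (40%). No copy had one in all 6 libraries. By library, 6, 8 and 20 copies had a peak in Het and 3, 3 and 2 in KO, while the number of all peaks was 43399, 67074 and 111327 in Het and 46070, 19160 and 29600 in KO. The copies with a peak were 3.12%, 4.17% and 10.4% in Het and 1.56%, 1.56% and 1.04% in KO. Over all genes the shares were 8.93%, 17.6% and 31.4% in Het and 12.8%, 4.1% and 5.34% in KO. Rpl31-ps7 had a peak in 2 Het libraries, and Rpl21-ps1, Rpl19-ps3 and Rps23-ps1 each in 1 Het library. Without Het replicate C the count of 30 was 19. Non-unique alignments had been removed before peaks were called, and no P-value was computed for these counts.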

How the data were processed

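RNA-seq libraries were made from oocytes or 2-cell embryos with a Smart-seq kit. Per the paper's methods the authors pooled 10 cells per library, whereas the labels speak of individual cells. The authors aligned reads with STAR 2.5.3a to mm10 and computed FPKM per gene with Partek Flow. In the ZH and Zscan4 tables the deposited values are FPKM over the listed span, introns included, plus a constant. In both CabZ tables the deposited values are a score, reads divided by the squared span length and scaled to one total, plus a constant. ATAC-seq peaks were called by the authors with MACS2 per library; the deposited columns hold fold enrichment (a ratio), a score and −log10 P and q.

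Each table's minimum was subtracted, and CabZ values were multiplied by span length and divided by the library's sum of value times squared length. Tables were normalised separately and tested alone, with limma 3.58.1 (R 4.3.3) on log2(FPKM + 1) keeping genes that averaged 1 FPKM or more, with Benjamini-Hochberg adjustment. Spans were aligned with blastn 2.17.0 to GENCODE transcripts of mm10. The copies named were the 16 called with the largest change and the 8 with the highest level; others were named after their values were seen. Alternatives changed the filter, the pseudocount, the scaling and the fold threshold, added a replicate block or left out a library. Members and lists were chosen with earlier results of these data known. The fits were tested on simulated data.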

Additional observations from a re-analysis of the deposited data

Results flagged for a closer look

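In 12 of 222 groups of 4 libraries that were examined, the highest or lowest library stood apart from the others by more than Dixon's 95% limit; chance gives about 1 in 20. Among the copies, Rpl35a-ps2, Rpl35a-ps3, Rpl35a-ps4 and Rpl35a-ps6 were at 7.83 FPKM in ZH Het replicate 2, with the other ZH Het libraries at 12.8 to 13.3, and these 4 are one set of values. Rpl9-ps6 was at 14.2 FPKM in ZH KO replicate 2 (others 19.5 to 20.4). Rpl19-ps11 was at 448 FPKM in CabZ Het GV replicate 4 (others 394 to 403) and Rps13-ps1 at 284 in CabZ Het GV replicate 3 (others 378 to 385). In 2-cell embryos Rpl19-ps3 was at 5.08 FPKM in CabZ KO replicate 1 (others 2.09 to 2.51) and Rpl31-ps7 at 2.99 in CabZ Het replicate 1 (others 0.32 to 0.332). CabZ Het 2-cell replicate 1 also held 23.2 copy reads per 100 ribosomal protein gene reads (others 25.3 to 25.5). Of the parents, Rpl15 was at 44.9 FPKM in ZH KO replicate 3 (others 28.7 to 30.8) and Rpl38 at 1.79 in CabZ KO 2-cell replicate 3 (others 1.3 to 1.32).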

How the results depend on the processing

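No called result changed sign under the alternatives run. In ZH oocytes the 20 calls became 13 under median scaling (10 higher, 3 lower) and 42 with no fold threshold. Those 42 were 36 higher and 6 lower of 71, beside 1485 higher and 1521 lower of 5792 genes tested. Higher calls made up 59.2% of all calls, 45.3% under median scaling and 72% when scaled to reads in the table, which moved the median of all genes by -0.126 and 0.124. In CabZ GV oocytes the count of 0 became 4 with a pseudocount of 0.1 FPKM, 13 with no fold threshold, 4 with folds taken as ratios of group means, 1 when scaled to nuclear reads, and 0 to 2 when each library was left out. In CabZ 2-cell embryos the 59 calls became 17 with the values as deposited (the median of all genes moved by 0.257) and 51 to 62 when each library was left out. Median scaling there gave 42 lower and 5 higher, moved the median of all genes by 0.201 and the share of higher calls from 45.3% to 57.7%. The one call in embryos labelled Zscan4 OE became 0 with no filter, a minimum of 5 FPKM, a pseudocount of 0.1 FPKM or the replicate block, 2 when scaled to reads in the table, and 0 to 2 when each library was left out (0 without GFP replicate A or B, 2 without Zscan4 OE replicate C). The causes were not tested. Peaks with −log10 q of at least 5 lay at 5 copies (2.6%), beside 13.8% of all genes, and the count of 30 was 19 to 30 when each library was left out.

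Same-numbered libraries correlated between -0.407 and 0.395 in ZH, -0.18 and 0.144 in CabZ GV, -0.052 and 0.125 in CabZ 2-cell and -0.182 and 0.163 in injected embryos, so pairing by number was not seen. ZH Het 1 and 2 correlated at 0.14 to 0.454 with KO 2 and 3 and at -0.436 to -0.243 with KO 1 and 4. For ZH Het 3 and 4 the values were 0.196 to 0.475 with KO 1 and 4 and -0.432 to -0.117 with KO 2 and 3. Such a grouping across genotypes was not modelled, and its cause was not tested. With the replicate block 20, 0 and 53 copies were called in ZH, CabZ GV and CabZ 2-cell. Depth limits copies with few reads, and shared reads limit copies like their parents.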
